A study of Mus musculus with 9 samples.

Results

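The 4 mouse Hox clusters were examined in H3K27me3 ChIP-seq of Lin-/c-Kit+ bone marrow cells, a fraction enriched for hematopoietic stem and progenitor cells. The genes were taken by name from the RefSeq annotation of mm10 as a list of 38 Hox genes, and all 38 matched. They are 38 of 21887 annotated protein-coding genes, of which 8598 touched at least 1 interval of the mark in at least 1 library. HoxA lies on chromosome 6 and HoxB on chromosome 11, with 10 listed genes each, and HoxC lies on chromosome 15 and HoxD on chromosome 2, with 9 listed genes each.

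Hox genes encode homeodomain transcription factors that give cells their position along the body axis. Within a cluster the genes stand in the order in which they are used, from anterior genes at the low-numbered end to posterior genes at the high-numbered end. Where a Hox cluster is silent, Polycomb repressive complex 2 trimethylates lysine 27 of histone H3 (H3K27me3) across it in a broad domain, and an active part of the cluster carries little of the mark. Hoxa9, Hoxa10 and Hoxb4 are known as regulators of self-renewal in blood stem and progenitor cells.

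The study crossed 2 genotypes with 2 treatments, and each of the 4 groups had 2 libraries. RH MET and RH VEH cells carried Dnmt3a fl-R878H/+, a conditional mutant allele of the DNA methyltransferase Dnmt3a, with metformin or vehicle. WT MET and WT VEH cells were Dnmt3a+/+, with metformin or vehicle. All 4 groups were labelled C57BL/6, from crosses with Mx1-cre mice. The promoter of that transgene responds to interferon and acts in many tissues beyond blood. All cells came from female transplanted mice after 1 month of treatment and were never cultured. The labels do not say how many of the recipients' cells came from the donor, or whether the 2 libraries of a group came from separate animals, so the spread between them may be technical.

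Each library was deposited as intervals, stretches called as carrying the mark, each with 1 summit, the position of its highest signal, and the height of that summit. The libraries held between 11620 and 16879 intervals covering 80.0 to 186 Mb, with median summit heights of 12 to 17. RH VEH 1 was the lowest in all 3 of these measures. WT MET 2 was the highest in covered length and in median height. Read depth is unknown, because the intervals carry no read totals. As positive and negative checks, the silent developmental genes Pax6 and Gata4 were covered over at least 89.8% and 84.9% of their spans in every library, and Actb and Gapdh touched no interval in any library. Of 8 blood progenitor genes, between 2 and 4 touched an interval per library, with Ptprc, Lmo2 and Runx1 at 0% in all 8. Gata2 was at 89.1% to 100% and Tal1 at 52.0% to 92.5%. Cd34 was at 0% to 12.4%, Kit at 0% to 8.58% and Myb at 0% to 14.4%.

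Promoter sequences are shown for 4 genes at which the domains change or peak. Hoxa5 borders the gap of the HoxA domain, Hoxb4 borders the gap of the HoxB domain, and Hoxa10 and Hoxd9 hold the highest summits of HoxA and HoxD in 6 libraries each. Each runs from 250 bases before to 50 after a RefSeq start, on the gene's own strand, from GRCm38.p6, the assembly of mm10. Capitals mark CG dinucleotides, the sites of DNA methylation, which read the same on both strands.
Hoxa5 (chr6:52204538-52204837, minus strand): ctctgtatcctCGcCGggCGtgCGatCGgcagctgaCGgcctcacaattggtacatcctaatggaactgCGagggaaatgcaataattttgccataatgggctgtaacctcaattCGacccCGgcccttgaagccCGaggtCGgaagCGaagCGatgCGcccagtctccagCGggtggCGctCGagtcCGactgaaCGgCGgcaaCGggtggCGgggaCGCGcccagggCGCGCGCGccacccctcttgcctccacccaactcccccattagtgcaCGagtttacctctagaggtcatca
Hoxa10 (chr6:52234890-52235189, minus strand): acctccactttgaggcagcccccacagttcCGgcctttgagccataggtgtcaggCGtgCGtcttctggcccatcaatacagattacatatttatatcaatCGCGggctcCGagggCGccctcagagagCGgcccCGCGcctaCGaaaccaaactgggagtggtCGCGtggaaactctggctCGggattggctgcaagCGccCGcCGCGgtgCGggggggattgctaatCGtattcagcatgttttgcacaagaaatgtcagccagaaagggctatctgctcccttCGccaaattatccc
Hoxb4 (chr11:96318017-96318316, plus strand): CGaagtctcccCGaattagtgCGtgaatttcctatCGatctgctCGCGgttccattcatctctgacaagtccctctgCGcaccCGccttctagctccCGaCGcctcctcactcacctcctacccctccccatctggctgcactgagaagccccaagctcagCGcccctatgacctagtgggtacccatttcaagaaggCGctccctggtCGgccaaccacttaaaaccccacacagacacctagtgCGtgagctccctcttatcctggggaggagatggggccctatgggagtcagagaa
Hoxd9 (chr2:74697513-74697812, plus strand): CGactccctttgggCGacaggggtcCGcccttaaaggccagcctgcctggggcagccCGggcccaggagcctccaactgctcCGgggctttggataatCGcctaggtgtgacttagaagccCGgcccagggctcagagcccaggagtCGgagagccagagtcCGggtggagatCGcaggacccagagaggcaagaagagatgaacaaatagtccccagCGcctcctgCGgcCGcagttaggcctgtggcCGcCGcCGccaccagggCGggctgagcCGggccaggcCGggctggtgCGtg

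The Hoxa5 promoter holds 29 CG, a number matched or passed by 12.9% of 32851 promoters of the same length. The Hoxa10, Hoxd9 and Hoxb4 promoters hold 21, 20 and 14 CG, which 24.8%, 26.5% and 36.3% of promoters match or pass. RefSeq promoters were found for 22 of the 38 genes, 24 windows in all, and their median was 14.5 CG against 7 over all promoters. Of these 24 windows, 21 lay wholly inside intervals in all 8 libraries, a share not counted over all promoters. The other 3 were at Hoxa5, Hoxb4 and Hoxb8, each wholly covered in 7 libraries and without any cover in WT MET 2.

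The clusters also carry microRNAs, and their mature sequences are shown because pairs from different clusters share a seed (bases 2 to 8, in capitals). They are written as RNA.
mmu-miR-10a-5p (HoxB, chr11:96317186-96317208): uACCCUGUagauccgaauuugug
mmu-miR-10b-5p (HoxD, chr2:74726074-74726096): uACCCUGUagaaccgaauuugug
mmu-miR-196a-5p (HoxB, chr11:96265187-96265208, and HoxC, chr15:102973365-102973386): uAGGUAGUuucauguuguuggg
mmu-miR-196b-5p (HoxA, chr6:52230129-52230150): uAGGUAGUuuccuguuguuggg

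The miR-10 pair shares the seed ACCCUGU and the miR-196 pair shares AGGUAGU. The hairpins in HoxA, HoxC and HoxD were wholly covered in all 8 libraries. Those in HoxB, Mir10a and Mir196a-1, were wholly covered in 7 libraries and had no cover in WT MET 2.

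H3K27me3 covered most of each of the 4 clusters in every library, except HoxB in WT MET 2, where 20.5% was covered from Hoxb13 to Hoxb1. In 7 of the 8 libraries all 38 Hox genes touched an interval, and in WT MET 2 there were 30. Complete cover of the gene span in all 8 libraries was found for 26 of the 38 genes (68.4%), against 592 of the 8598 genes with any interval (6.89%), without matching for gene length. The 26 were all 9 HoxC genes, all 9 HoxD genes, 6 HoxA genes and 2 HoxB genes. The number of wholly covered Hox genes was 35 and 36 in RH MET, 33 and 36 in RH VEH, 34 and 27 in WT MET, and 34 in both WT VEH libraries. The map of intervals across the clusters shows unbroken cover at HoxC, a single small break at HoxD in RH VEH 1, and recurring breaks at HoxA and HoxB.

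**Figure D1:**
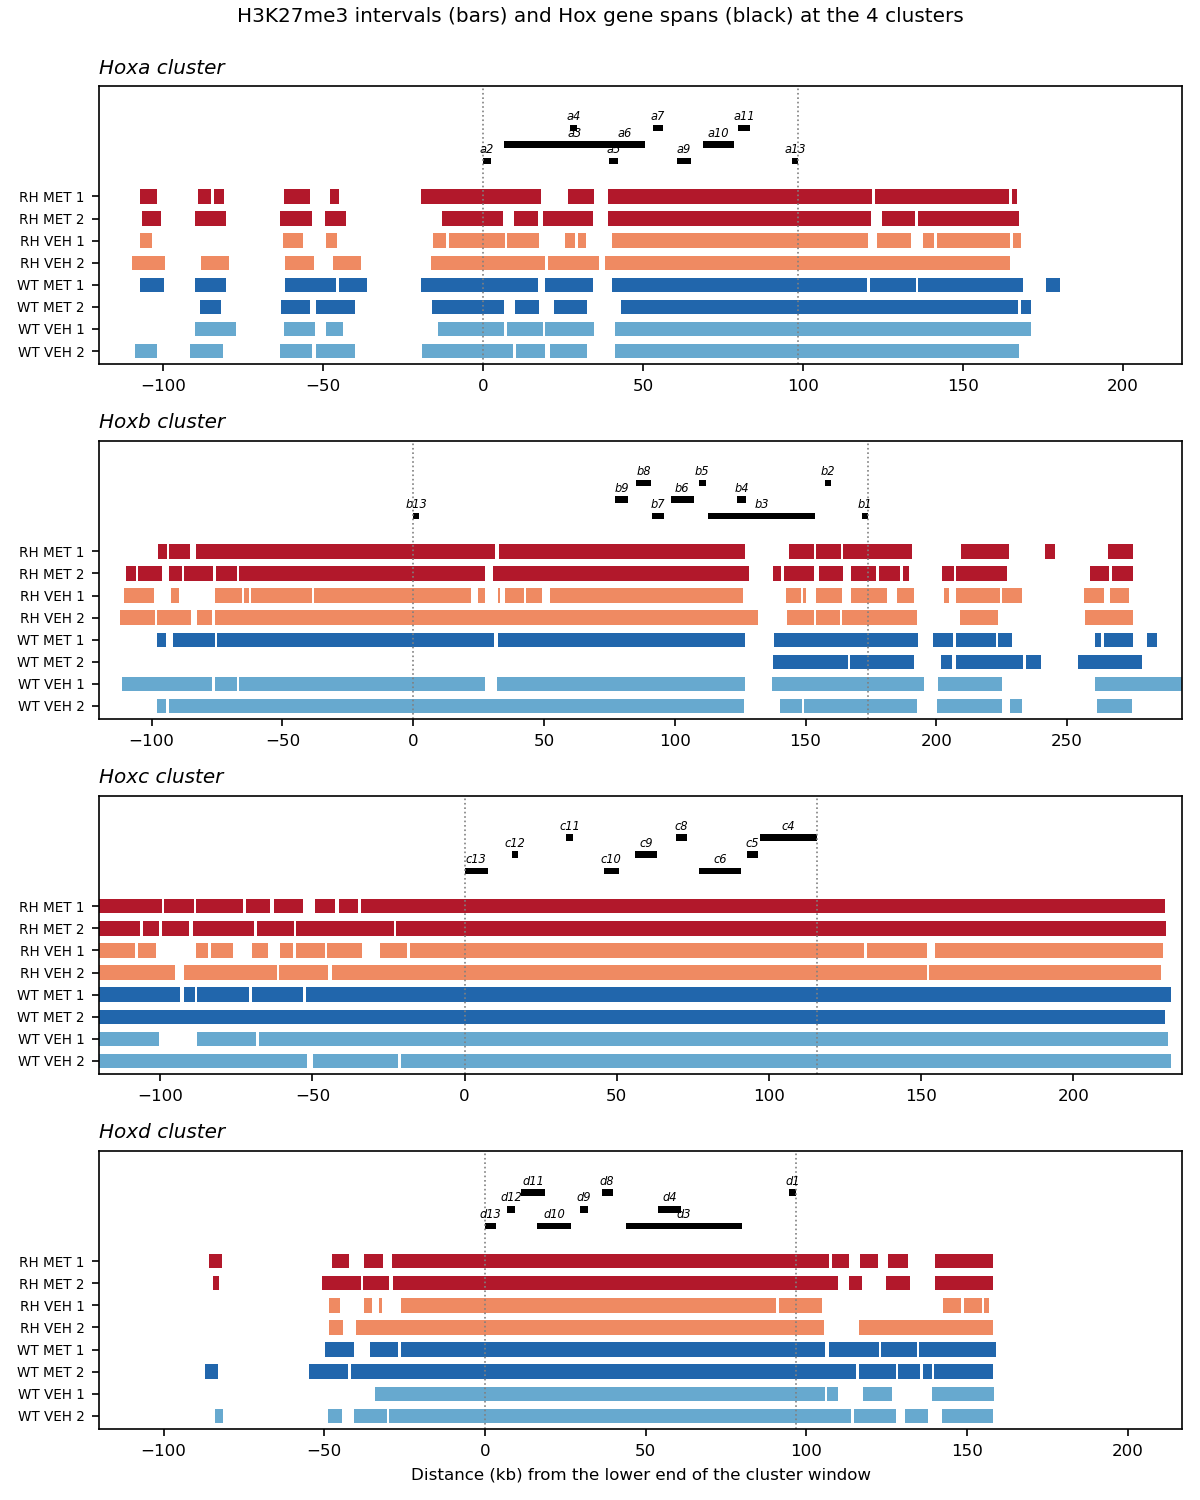
Intervals of the mark (coloured bars, 1 row per library) and Hox gene spans (black, numbered) at the 4 clusters, with the distance in kb from the lower end of each cluster window on the x axis and 120 kb shown on either side; dotted lines mark the window ends. HoxC and HoxD are covered without a shared gap, HoxA and HoxB each break at 1 place in all 8 libraries, and WT MET 2 has no bar over the lower part of HoxB.

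No Hox gene separated the groups by presence of an interval. Only WT MET 2 lacked an interval at any Hox gene, and separation needs absence from both libraries of a group. The lack of such genes below follows from that and carries no information on differences between groups. Under vehicle, no Hox gene touched an interval in both RH libraries and neither WT library, which 0.434% of 7831 genes did, and none did the reverse, which 2.4% did. Under metformin, no Hox gene touched an interval in both RH libraries and neither WT library (0.921% of 8248 genes) or the reverse (2.21%). Between RH MET and RH VEH there was none in both metformin libraries alone (2.99% of 7887 genes) or in both vehicle libraries alone (0.203%). Between WT MET and WT VEH there was none in both metformin libraries alone (2.23% of 8236 genes) or in both vehicle libraries alone (0.522%). Without WT MET replicate 1, leaving WT MET 2 to stand for its group, 8 Hox genes would be marked in both RH MET libraries alone (2.14% of 8071 genes, and 6.55% in WT MET 2 alone). The same count would be marked in both WT VEH libraries alone (1.34% of 8041 genes, and 6.31% in WT MET 2 alone).

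Counting a gene as marked only where at least 50% of its span was covered, 1 Hox gene separated RH VEH from WT VEH, marked in both RH VEH libraries alone, as 0.321% of 3120 genes were, while 3.69% were marked in both WT VEH libraries alone. It was Hoxa5, which encodes a homeodomain protein of the central cluster with known roles in lung and skeletal patterning. Hoxa5 was covered over 100% and 100% of its span in the RH MET libraries and 70.1% and 100% in the RH VEH libraries. It was covered over 63.1% and 0% in the WT MET libraries and 34.8% in both WT VEH libraries. All 4 RH libraries were above all 4 WT libraries, and the 2 treatments overlapped within each genotype. Of 8006 genes whose cover varied, 0.175% had all 4 RH libraries above all 4 WT libraries, and 3.31% had them all below. By treatment, no Hox gene had all 4 MET libraries above or below all 4 VEH libraries, which 1.09% and 0.0999% of genes did.

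The Hoxa5 span (chr6:52201754-52204587) averaged 92.5 ± 14.9% covered in RH and 33.2 ± 25.8% in WT (SD, n = 4 each). The difference was 59.4 percentage points with a standard error of 15.8, against a median of -1.73 points over the 8006 genes. It did not pass the threshold once adjusted over those genes (limma, Benjamini-Hochberg adjusted p = 0.541). For Hoxa5 alone, an exact two-sided permutation test over the 70 assignments of libraries to genotype gave p = 0.0286, the smallest it can give. That test was 1 of 54 run on Hox genes and regions, of which 3 reached that value. Over 14 alternative settings the adjusted p lay between 0.0421 and 0.673, and the value under 0.05 was the one without WT MET replicate 1. The difference between treatments at Hoxa5 was 5.82 points with a standard error of 15.8 (limma, adjusted p = 0.975), and the interaction had an adjusted p of 0.994.

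Hoxa5 lost cover from its 3′ end, since HoxA is read from the minus strand and the uncovered stretch lay on its lower side. The gap there sits between Hoxa4 and Hoxa5 and was present in all 8 libraries. Its part shared by all 8 was chr6:52198601-52200400, 1.8 kb that lie within the long annotated span of Hoxa3. The gap measured 4.4 and 4.8 kb in RH MET, 8.0 and 1.8 kb in RH VEH, 6.2 and 10.8 kb in WT MET, and 6.4 and 8.8 kb in WT VEH. Gap widths of RH and WT libraries overlapped, at 4.75 ± 2.54 kb in RH and 8.05 ± 2.18 kb in WT (SD, n = 4 each).

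The boundary on the Hoxa5 side, unlike the gap width, did not overlap between the genotypes, and its difference did not pass the limma threshold. The block from Hoxa5 to Hoxa13 began at 52201401 in both RH MET libraries and at 52202601 and 52200401 in RH VEH. It began at 52202801 and 52205601 in WT MET and at 52203601 in both WT VEH libraries. All 4 RH starts lay below all 4 WT starts, as in 0.121% of 6586 merged regions with a varying lower edge, while 3.23% had them all above. The RH boundary lay 2.45 kb lower, with a standard error of 1.12 (limma, adjusted p = 0.792). Its exact permutation p was 0.0286, and this is the same boundary that sets the cover of Hoxa5. Hoxaas3, an antisense RNA that starts beside Hoxa5, was covered over 97.8% and 97.8% in RH MET, 88.2% and 100% in RH VEH, 86.6% and 64.1% in WT MET and 80.1% in both WT VEH libraries.

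**Figure D2:**
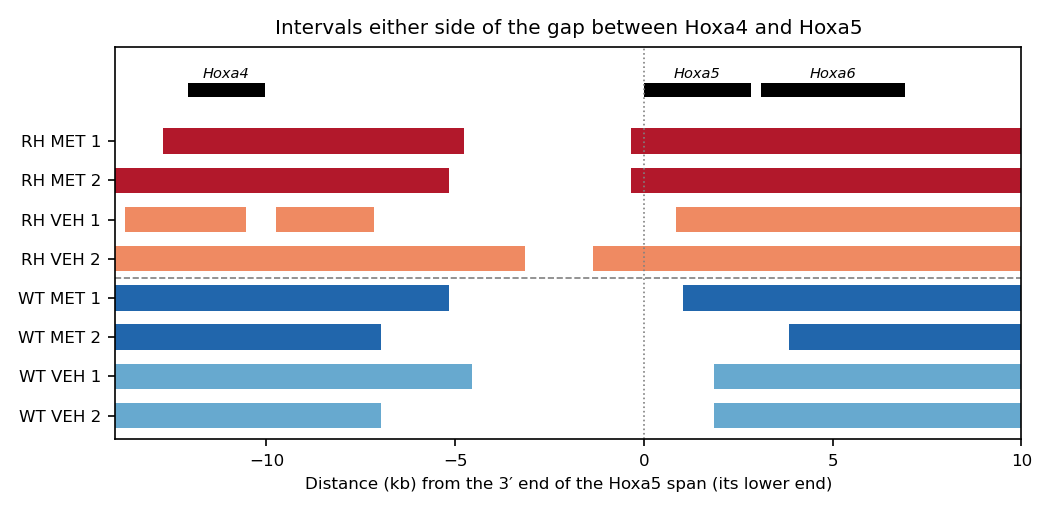
Intervals either side of the gap between Hoxa4 and Hoxa5, 1 row per library, with the distance in kb from the lower (3′) end of Hoxa5 on the x axis and gene spans in black; the dashed line parts RH (above) from WT (below). In 3 of the 4 RH libraries the right-hand block begins before the Hoxa5 span, and in all 4 WT libraries it begins inside or beyond it.

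The other HoxA genes divided into those of the main block and those at the anterior end. Hoxa7, Hoxa9, Hoxa10, Hoxa11 and Hoxa13, and the anterior Hoxa2, a hindbrain and cranial neural crest regulator, were wholly covered in all 8 libraries. Hoxa9, which binds DNA with Meis1 and is used in blood progenitors, and Hoxa10 thus lay inside the mark in every library. Hoxa6 was wholly covered except in WT MET 2, at 80.5%. Hoxa4 was wholly covered except in RH VEH 1, at 75.1%. Hoxa3, whose 44.0 kb span holds the gap and parts of 2 blocks, was covered over 70.5% and 79.2% in RH MET, 59.6% and 93.2% in RH VEH, 81.4% and 57.0% in WT MET, and 81.5% and 74.6% in WT VEH. The 4 groups overlapped at Hoxa3, and the RH minus WT difference was 2.01 points with a standard error of 10.03 (limma, adjusted p = 0.955).

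Over the 98.5 kb HoxA window, from Hoxa2 to Hoxa13, intervals covered 86.8% and 90.3% in RH MET, 81.9% and 97.0% in RH VEH, 91.7% and 80.7% in WT MET, and 91.5% and 88.6% in WT VEH. Each library had 2 to 4 gaps in it, and 74.4% of the window was covered in all 8. Both extremes of cover among RH libraries belonged to RH VEH.

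**Figure D3:**
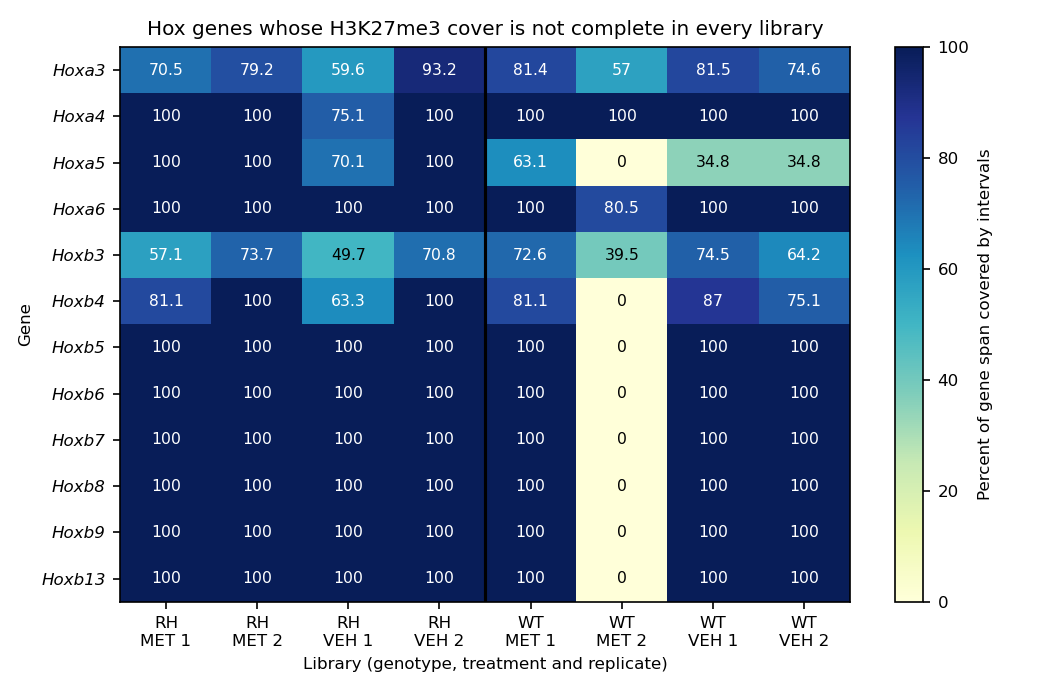
Percent of the gene span covered by intervals (colour and number) for the 12 Hox genes not wholly covered in every library, with genes in rows and libraries in columns; the vertical line parts RH (left) from WT (right). Hoxa5 is the gene whose RH values, 70.1 to 100, all exceed its WT values, 0 to 63.1, and WT MET 2 is at 0 for 8 genes.

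The lower edge of the HoxA domain lay toward Skap2, a signalling adaptor gene expressed in blood cells. With intervals up to 1000 bp apart joined, the edge stood 19.4 and 13.0 kb beyond Hoxa2 in RH MET, 15.6 and 16.2 kb in RH VEH, 19.4 and 16.0 kb in WT MET, and 14.2 and 19.2 kb in WT VEH. These ranges overlapped between genotypes and between treatments. At the upper end the joined domain ran past Evx1, an even-skipped homeobox gene that is wholly covered in all 8 libraries, or stopped short of it. It reached 68.5 and 22.9 kb beyond Hoxa13 in RH MET, 21.9 and 66.1 kb in RH VEH, 70.3 and 72.7 kb in WT MET, and 72.7 and 68.9 kb in WT VEH. All 4 RH values lay below all 4 WT values, the closest being 68.5 kb in RH MET 1 and 68.9 kb in WT VEH 2. For the upper end of the widest joined interval of a region, 3.4% of 6590 regions had all RH below all WT and 0.182% had them above. The shorter values, in RH MET 2 and RH VEH 1, mark a break between Hoxa13 and Evx1 wider than 1000 bp. The outermost edge of the merged region, which ignores such breaks, lay between 52327000 and 52333600 in all 8 libraries.

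In HoxB, 7 libraries covered the posterior and central genes completely and WT MET 2 did not. Hoxb5, Hoxb6, Hoxb7, Hoxb8, Hoxb9 and Hoxb13 were covered over 100% in both RH MET libraries, both RH VEH libraries, WT MET 1 and both WT VEH libraries, and over 0% in WT MET 2. Hoxb4 was covered over 81.1% and 100% in RH MET, 63.3% and 100% in RH VEH, 81.1% and 0% in WT MET, and 87.0% and 75.1% in WT VEH. Without WT MET 2, the RH and WT values of Hoxb4 overlapped.

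The empty stretch of WT MET 2 was 298.6 kb long, with its last interval below HoxB ending at 96033200 and its next one starting at 96331801. The other 7 libraries covered 67.4% to 80.2% of this stretch, and their longest breaks in it were 48.6 to 63.4 kb. The stretch took in Ttll6, a tubulin-modifying enzyme gene 28.1 kb below Hoxb13, which was covered over at least 94.2% in the 7 other libraries. The merged region it removes, chr11:96082401-96326000, measured 243.6 kb and ranked 7 by width among 18556. WT MET 2 lacked only 10 regions that all 7 others had, fewer than any other library, and this was its only one of at least 50 kb. RH VEH 1 lacked 611 such regions, 25 of them at least 50 kb wide. In the rest of HoxB, WT MET 2 had the highest summit of all libraries at Hoxb2, at 92. Whether the stretch lacked the mark or lacked called intervals was not tested, since no signal track was analysed here.

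The percent of the 173.9 kb HoxB window covered was 88.4% and 89.3% in RH MET, 78.5% and 92.5% in RH VEH, 92.6% and 20.5% in WT MET, and 91.3% and 91.6% in WT VEH. The window broke in the same place in all 8 libraries, in the stretch between Hoxb4 and Hoxb2 that the long Hoxb3 span crosses. The part uncovered in all 8 was chr11:96326001-96331600, 5.6 kb. The whole gap measured 17.0 and 9.2 kb in RH MET, 16.4 and 11.4 kb in RH VEH, 11.2 kb in WT MET 1, and 10.4 and 13.8 kb in WT VEH. In WT MET 2 it merged with the empty stretch. Among the 7 other libraries, the RH gaps overlapped the WT gaps. In these 7 the joined lower edge stood 83.1 and 75.5 kb beyond Hoxb13 in RH MET and 75.9 and 82.7 kb in RH VEH. It stood 91.9 kb beyond Hoxb13 in WT MET 1, and 111.5 and 97.9 kb in WT VEH. These RH values lay below these WT values, an order not counted over all regions. The outermost lower edge, which ignores breaks, lay between 96082401 and 96096601 in these 7, and RH and WT overlapped.

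The anterior HoxB genes lay beyond this gap. Hoxb1 and Hoxb2, regulators of hindbrain segments, were wholly covered in all 8 libraries. Hoxb3 was covered over 57.1% and 73.7% in RH MET, 49.7% and 70.8% in RH VEH, 72.6% and 39.5% in WT MET, and 74.5% and 64.2% in WT VEH. Its RH minus WT difference was 0.110 points with a standard error of 10.6 (limma, adjusted p = 1.00).

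The merged region holding Hoxb1, Hoxb2 and part of Hoxb3 was covered over 45.4 and 43.8 kb in RH MET, 37.4 and 47.8 kb in RH VEH, 55.0 and 53.0 kb in WT MET, and 58.0 and 51.6 kb in WT VEH. All 4 RH libraries were below all 4 WT libraries, as in 5.16% of 6592 regions whose covered length varied, while 0.106% had them all above. The difference was -0.32 on the log2 scale with a standard error of 0.14 (limma, adjusted p = 0.655), and the exact permutation p was 0.0286. Without RH VEH replicate 2 it was -0.41 (limma, adjusted p = 0.0424), and 11.3% of 6706 regions then passed, all of them lower in RH, with a median of -0.40. The number of intervals in this region was 3 and 6 in RH MET, 5 and 3 in RH VEH, 1 and 2 in WT MET, and 1 and 2 in WT VEH. All 4 RH libraries had more than all 4 WT libraries, as in 0.514% of 3113 regions whose number varied, while 0.289% had fewer. Hoxb2 and Hoxb1 lay in separate intervals in all 4 RH libraries, with breaks of 0.8 and 3.0 kb in RH MET and 3.2 and 0.8 kb in RH VEH. In WT they were separate in WT MET 2, with a break of 0.8 kb, and shared 1 interval in the other 3. The upper edge of the domain lay 16.9 and 2.95 kb beyond Hoxb1 in RH MET, 7.35 and 18.5 kb in RH VEH, 18.9 and 17.3 kb in WT MET, and 21.3 and 18.7 kb in WT VEH. It did not reach Skap1, whose near end is 96.3 kb from Hoxb1, in any library. The shorter upper edges, in RH MET 2 and RH VEH 1, mark breaks wider than 1000 bp. The outermost edge of the merged region, which ignores such breaks, lay between 96384000 and 96389600 in all 8 libraries.

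Position by position, few stretches of the Hox regions separated the genotypes. At HoxA, 0.2 kb within Hoxa5 (chr6:52202601-52202800) was covered in all 4 RH libraries and in no WT library, and at least 1 such stretch occurred in 0.455% of 6597 regions called in all 8 libraries. It is the step between the starts of the Hoxa5 to Hoxa13 block in RH VEH 1 and WT MET 1. It thus follows from the boundary given above, and the genotypes are parted there by a single step of the 200 bp grid of intervals. At HoxB, a stretch of 1.0 kb (chr11:96335001-96336000) lay within the Hoxb3 span and a stretch of 0.8 kb (chr11:96347401-96348200) crossed its upper end. Both were uncovered in all 4 RH libraries and covered in all 4 WT libraries. Such stretches occurred in 10.4% of regions. Over all regions they summed to 15.4 kb covered in RH alone and 704.4 kb covered in WT alone. By treatment, 1.4 kb below Evx2 at HoxD (chr2:74624201-74625600) was covered in all 4 MET libraries and in no VEH library, as in 3.18% of regions, and no stretch of the Hox regions showed the reverse, which 0.955% of regions did. Region width was not matched in these shares.

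HoxC was covered without a break in all 8 libraries. Each of Hoxc4, Hoxc5, Hoxc6, Hoxc8, Hoxc9, Hoxc10, Hoxc11, Hoxc12 and Hoxc13 was at 100%, and a single interval spanned the 115.7 kb window in every library. That interval was 264.4 and 253.0 kb wide in RH MET, 149.2 and 195.4 kb in RH VEH, 284.4 and 411.8 kb in WT MET, and 298.8 and 253.0 kb in WT VEH. The interval of RH VEH 1 was the narrowest and that of WT MET 2 the widest. It was the widest interval of its whole library in 7 of the 8 libraries, the exception being RH VEH 2.

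The upper edge of HoxC lay beside Smug1, a uracil DNA glycosylase gene whose span begins at 103153290. The joined domain ended 1.89 and 1.69 kb short of that gene in RH MET, 80.1 and 3.49 kb short in RH VEH, 0.11 kb inside and 2.09 kb short in WT MET, and 0.89 and 0.09 kb short in WT VEH. RH VEH 1 stood apart because of a break, and the last interval of its region ended at 103150600. The RH minus WT difference in the outermost edge was -1.70 kb with a standard error of 0.83 (limma, adjusted p = 0.786). The joined lower edge, beyond the posterior gene Hoxc13, stood 41.3 and 89.3 kb from the gene in RH MET, 27.9 and 43.5 kb in RH VEH, 92.3 and 181.7 kb in WT MET, and 87.9 and 49.7 kb in WT VEH. These values overlapped between genotypes and between treatments, and they mark breaks wider than 1000 bp. The outermost lower edge, which ignores such breaks, lay between 102721201 and 102733401 in all 8 libraries. Its RH minus WT difference was -0.45 kb with a standard error of 3.22 (limma, adjusted p = 0.984).

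HoxD was covered completely in 7 libraries and had a single break of 0.8 kb, outside any listed gene, in RH VEH 1. Hoxd1, Hoxd3, Hoxd4, Hoxd8, Hoxd9, Hoxd10, Hoxd11, Hoxd12 and Hoxd13 were at 100% in all 8. Below the posterior Hoxd13, a digit and genital patterning gene, the domain took in Evx2 and ended 28.8 and 28.6 kb from the gene in RH MET, 26.2 and 40.2 kb in RH VEH, 35.8 and 54.6 kb in WT MET, and 34.2 and 40.8 kb in WT VEH. Above the anterior Hoxd1 the joined domain ended 16.5 and 13.1 kb away in RH MET, 8.06 and 8.66 kb in RH VEH, 62.3 and 61.3 kb in WT MET, and 12.9 and 30.9 kb in WT VEH. Both WT MET domains thus ran to Mtx2, a mitochondrial outer membrane gene that starts at 74825812, and the other 6 stopped at least 29.8 kb short of it. Within each genotype both MET values exceeded both VEH values, and across genotypes the 4 MET and 4 VEH values overlapped. This joined edge was not tested, and the share of all regions with such an order of treatments was not counted. In every library some interval did end near Mtx2, since the outermost edge of the merged region lay between 74825200 and 74827400, so the libraries differ in the breaks on the way there.

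**Figure D4:**
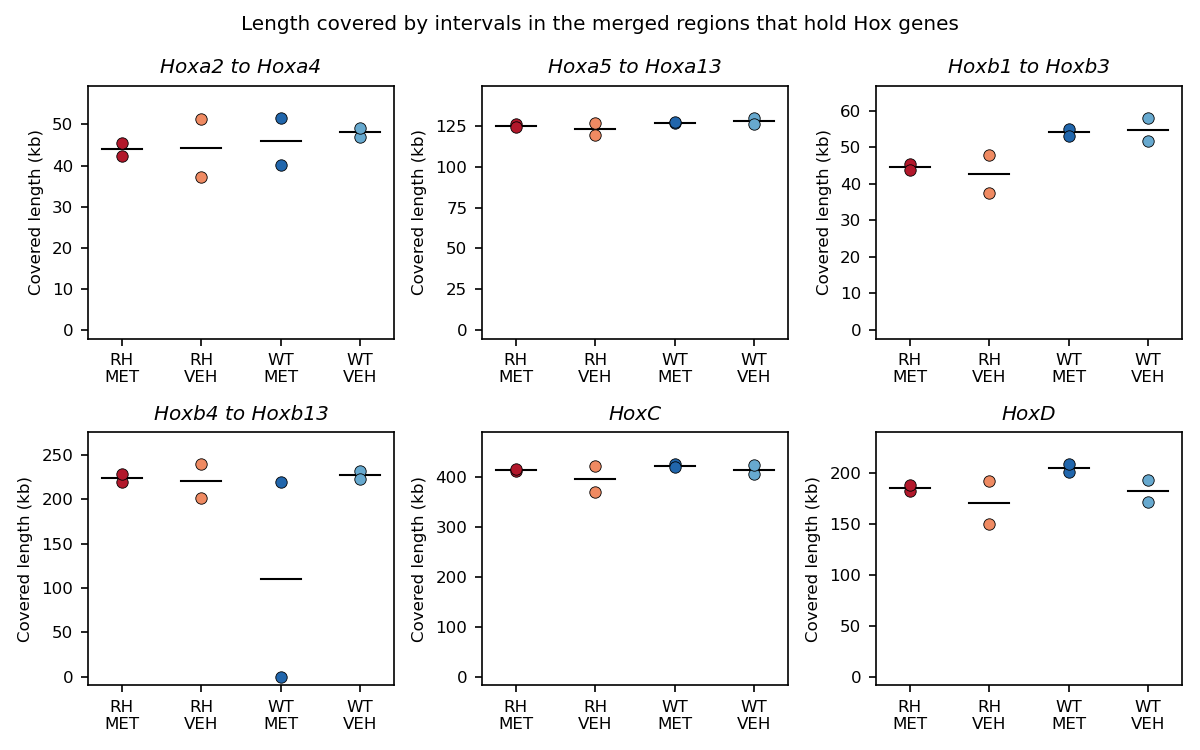
Length in kb covered by intervals in each of the 6 merged regions that hold Hox genes, with points for the 2 libraries of a group, lines for their mean and every axis starting near 0. In the Hoxb1 to Hoxb3 region the RH points, 37.4 to 47.8 kb, lie below the WT points, 51.6 to 58.0 kb, and in the Hoxb4 to Hoxb13 region 1 WT MET library is at 0.

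Covered length over the whole HoxD region was 182.6 and 188.4 kb in RH MET, 150.2 and 192.0 kb in RH VEH, 200.8 and 208.8 kb in WT MET, and 171.6 and 193.8 kb in WT VEH. The 2 WT MET libraries were the highest, and RH MET overlapped RH VEH. The MET minus VEH difference was 0.15 on the log2 scale with a standard error of 0.10 (limma, adjusted p = 1.00). WT MET 2 also had the largest covered length genome-wide.

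None of the 12 genes with varying cover passed the limma threshold of 0.05 in any contrast, where the background of all 8006 genes was 0.437% for RH minus WT, 0.425% for MET minus VEH and 0.337% for the interaction. For the single contrasts it was 0.137% for RH VEH minus WT VEH, 0.375% for RH MET minus WT MET, 0.187% for RH MET minus RH VEH and 0.312% for WT MET minus WT VEH. At an unadjusted p under 0.05 there was 1 gene, Hoxa5, in RH minus WT and in RH MET minus WT MET, and 0 in the other 5 contrasts, beside 6.73% of all genes in RH minus WT and 5.03% in RH MET minus WT MET. Without WT MET replicate 1 the counts became 7 of 12 Hox genes in RH minus WT, against 3.4% of 7891 genes, and 6 in MET minus VEH, against 3.12%, with WT MET 2 alone for its group. All of these but Hoxa5 lie in its empty HoxB stretch. Without WT MET replicate 2, only 5 Hox genes still varied and 0 passed in any contrast.

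None of the 5 Hox regions called in all 8 libraries passed for either edge or for covered length in any of the 7 contrasts. For the lower edge the background was 0.0456% of regions in RH VEH minus WT VEH, 0.0304% in RH MET minus RH VEH and 0.0% in the other 5 contrasts. For the upper edge it was 0.0304% in RH minus WT, 0.0152% in each of RH VEH minus WT VEH, RH MET minus WT MET and RH MET minus RH VEH, and 0.0% in the other 3. For covered length it was 0.0% in all 7. At the outermost upper edge no Hox region had all 4 RH libraries below all 4 WT libraries or above them, which 3.34% and 0.212% of 6589 regions did.

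Summit heights were high at all 4 clusters, and the position of the highest summit recurred between libraries. In HoxA it lay in Hoxa10 in 6 libraries, between 52233633 and 52234689, and in 5 of these within 250 to 378 bases of the Hoxa10 start shown above. In RH VEH 1 and WT MET 1 it lay in Hoxa13 instead. In HoxC it lay in Hoxc9, a regulator of thoracic motor neuron and skeletal identity, between 102981825 and 102981985 in 7 libraries. In RH VEH 1 it lay at 102976609, just outside Hoxc9. In HoxB it lay in Hoxb7 or Hoxb8 in 6 libraries, in Hoxb6 in RH VEH 1 and in Hoxb2 in WT MET 2.

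In HoxD the highest summit fell at different genes in different groups. It lay 494 and 574 bases inside Hoxd9 in RH MET, 382 and 510 bases in WT MET, and 689 and 734 bases in WT VEH. In RH VEH it lay in Evx2, at 74656321 and 74656353, in both libraries. Both RH VEH summits were more than 10 kb beyond the summits of the 6 other libraries on one side, as in 0.182% of 6597 regions called in all 8 libraries, a distance chosen after seeing the positions. Without the distance, 9.06% of regions had both RH VEH summits beyond the other 6. Only 1 summit is deposited per interval, so the height at Hoxd9 in RH VEH and at Evx2 in the others is not analysed here.

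**Figure D5:**
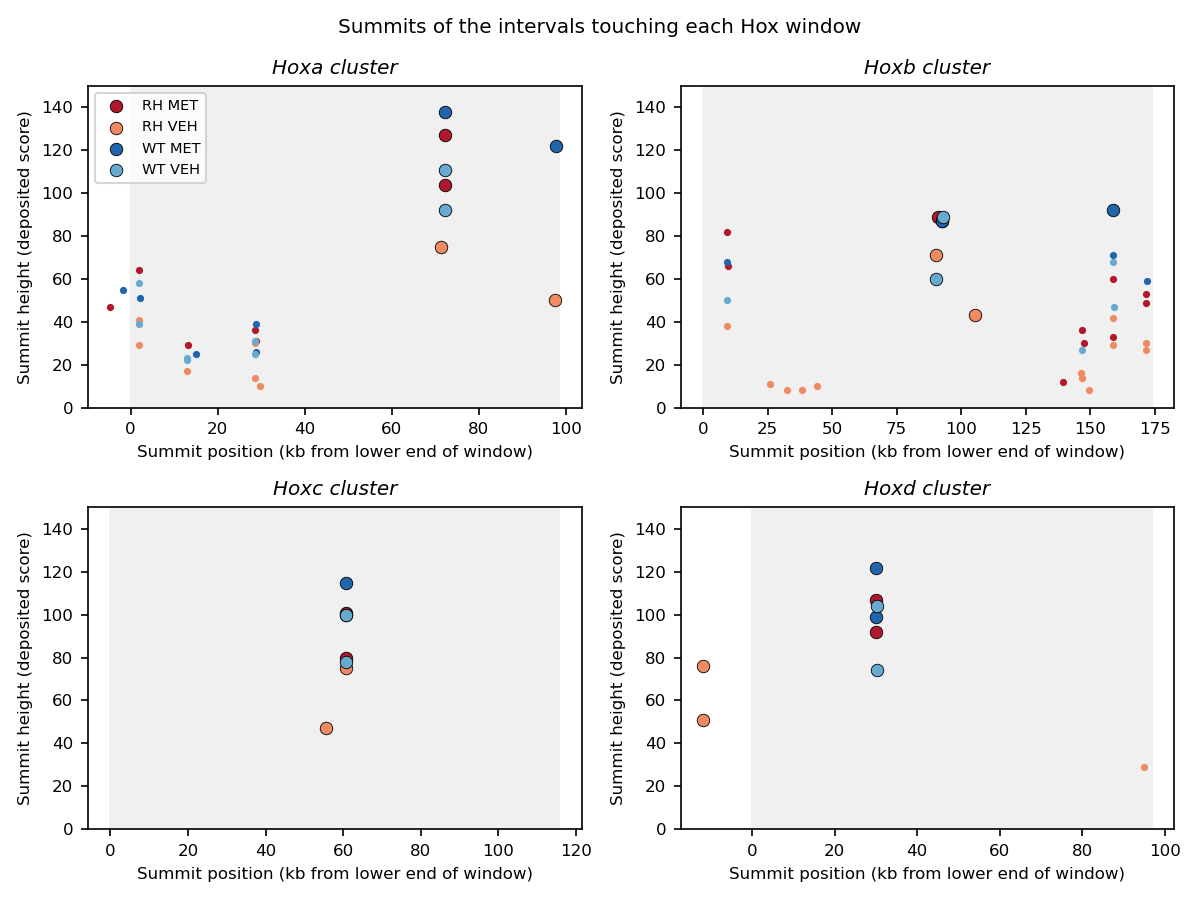
Height of each summit (deposited score) against its position in kb from the lower end of the cluster window (shaded), for the intervals touching each Hox window; large outlined points are the highest summit of a library and small points the others. In the HoxD panel both RH VEH points lie below the window at Evx2 and the other 6 lie at Hoxd9.

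The highest summit of HoxA was 127 and 104 in RH MET, 50 and 75 in RH VEH, 122 and 138 in WT MET, and 92 and 111 in WT VEH. That of HoxB was 89 and 87 in RH MET, 43 and 71 in RH VEH, 87 and 92 in WT MET, and 60 and 89 in WT VEH. That of HoxC was 101 and 80 in RH MET, 47 and 75 in RH VEH, 100 and 115 in WT MET, and 78 and 100 in WT VEH. That of HoxD was 107 and 92 in RH MET, 51 and 76 in RH VEH, 99 and 122 in WT MET, and 74 and 104 in WT VEH. RH VEH 1 was the lowest library at all 4 clusters, and it also had the lowest median height over all its intervals.

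Heights were therefore ranked within each library. The highest HoxA summit stood at percentile 99.2 to 99.8 of its library's summits, HoxD at 98.5 to 99.5, HoxC at 97.8 to 99.3 and HoxB at 95.5 to 98.8. HoxA stood above the other clusters in RH MET, WT MET and WT VEH, and HoxD stood above HoxA in both RH VEH libraries. Of the 30 Hox genes tested on this percentile, 0 passed the limma threshold in any contrast, where the background was 0.0184% for RH minus WT and at most 0.0552% for the others. At an unadjusted p under 0.05 there were 2 genes in RH minus WT, Hoxb1 and Hoxb2, beside 6.62% of all 5438 genes. Genes under 1 interval share its summit, so the 30 genes are not 30 separate values. All HoxC genes, for instance, had the same difference of -0.39 points. The 2 of 30 therefore cannot be set against that share. At Hoxb2 the percentile was 90.5 and 78.2 in RH MET, 87.3 and 87.6 in RH VEH, 93.6 and 96.3 in WT MET, and 89.6 and 94.2 in WT VEH. RH and WT overlapped at Hoxb2, and the difference was -7.50 points with a standard error of 2.56 (limma, adjusted p = 0.705). In WT MET 1 and both WT VEH libraries Hoxb1 and Hoxb2 share 1 interval and so 1 of the heights.

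The genes around and above the clusters in the Hox network kept their own patterns. Cdx2 and Cdx4, caudal-type factors that activate Hox genes, were wholly covered in all 8 libraries, and Cdx1 was covered over 14.6% to 80.4%. The ParaHox genes Gsx1, Gsx2 and Pdx1 and the cluster neighbours Evx1 and Evx2 were also wholly covered in all 8. Of 9 Hox cofactor genes of the Meis, Pbx and Pknox families, 5 or 6 touched an interval per library, with Meis1 at 9.52% to 11.5% and Pbx2, Pbx4 and Pknox1 at 0% throughout. Of 10 genes for enzymes and complexes that act on Hox chromatin, 2 or 3 touched an interval. Bmi1, a Polycomb repressive complex 1 subunit, was covered over 50.2% to 69.0%, and Ezh2, Eed and Suz12, the core of Polycomb repressive complex 2, were at 0% in all 8 libraries.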

How the data were processed

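H3K27me3 ChIP-seq of 8 libraries was analysed. Per the submitters' processing notes, bcl2fastq 2.20 and BWA 0.7.12 were used with mm10. No source used here gives the interval caller or its threshold. The authors deposited intervals per library on a 200 bp grid, 18556 merged regions, and a height per summit, a score of unknown unit. The input library was not analysed here. Intervals were called separately in each library, so cover moves with how much was called.

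Genes are RefSeq spans (GRCm38.p6), and 1 neighbouring gene of HoxA is not reported here. Percent of span covered, edges, log2 covered length of regions called in all 8 libraries, and the percentile of summit height within its library were fitted with limma 3.58.1 in R 4.3.3 (4 group means, trended robust variances, Benjamini-Hochberg over all genes or regions that varied). The percentile fit took genes with an interval in all 8. The fits were tested on simulated data, and counts were made in Python 3.11.15 with pandas 2.3.3.

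Values in every library are given for genes lacking an interval somewhere, the 3 per cluster with the widest range, and the first and last of each cluster. The members and lists were chosen with earlier results of these data known. Alternatives were a summit height of at least 15, equal interval numbers (11620 per library), joining intervals up to 1000 bp apart, spans widened by 1000 bp, cover of at least 50%, an arcsine scale, log2 heights, genes marked in at least 4 libraries, exact permutation, a replicate term and each library left out. The shares of regions by position, summit, interval number or joined edge, and non-overlap under other interval sets, were added after seeing the data.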

Additional observations from a re-analysis of the deposited data

Results flagged for a closer look

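Values standing apart from the 3 others among the 4 libraries of a genotype or a treatment were found mostly in WT MET 2 and RH VEH 1. Of 107 sets of 4 examined, 37 held such a value. Chance gives about 1 in 20 per set only without ties, and where the 3 others are equal any departure is flagged. The genes of a cluster also share intervals, so these are not independent. The count of 37 therefore cannot be set against that rate.

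WT MET 2 stood apart at 0% for Hoxb4 (among WT), and for Hoxb5, Hoxb6, Hoxb7, Hoxb8, Hoxb9 and Hoxb13 (among WT and among MET), and at 80.5% for Hoxa6 (among both). Its covered length in the HoxB window was 35.7 kb and its HoxB gap 137 kb, and its joined lower edge stood at -137 kb, that is, inside the window. With WT MET 2 left out, 0 Hox genes passed the limma threshold in any contrast.

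RH VEH 1 stood apart at 75.1% for Hoxa4 (among RH and among VEH) and at 70.1% for Hoxa5 (among RH). Its covered window length was 137 kb in HoxB (among VEH) and 96.1 kb in HoxD, with 9 gaps in HoxB (among VEH) and 1 in HoxD. Its joined upper edge lay 36.3 kb beyond the HoxC window and 21.9 kb beyond the HoxA window (among VEH). RH VEH 1 had the fewest intervals of the libraries, and the part of that in these values was not tested.

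Other such values were the upper edges of RH MET 2 at 22.9 kb beyond HoxA and 2.95 kb beyond HoxB (both among MET), 2 HoxA gaps in WT MET 1 (among WT) and the highest HoxB summit of WT VEH 1 at 60 (among WT).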

How the results depend on the processing

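Of 497 recomputed values for 42 results, 479 kept their direction and side of the threshold, or for counts stayed within 1.5 times. Single libraries decided most of the others. With each library left out in turn, the Hox genes separating groups by presence ranged from 0 to 8 for RH MET against WT MET and for WT MET against WT VEH. Those past the limma threshold for percent covered ranged from 0 to 7 (RH minus WT) and from 0 to 6 (MET minus VEH, interaction, RH MET minus WT MET, WT MET minus WT VEH). The upper values are those without WT MET replicate 1, where WT MET 2 is assumed to vary like the other groups and 2.85% to 3.5% of all genes passed in these 5 contrasts. Counts for height percentile ranged from 0 to 1 (Hoxd1, in 5 contrasts) and for covered length from 0 to 1 (RH minus WT), the 1 being without RH VEH replicate 2, where 0.473% to 7.53% of genes and 11.3% of regions passed. A cover of at least 50% gave 1 gene for RH VEH against WT VEH. On log2 heights, which are not ranked within a library, 8 of 30 Hox genes passed for MET minus VEH, where 1674 of 5438 genes did and the median of all genes was 0.53. All of the 8 but Hoxd1 were HoxA genes that share 1 summit per library and so the same difference, 0.63. Over omissions, Hoxa5 cover differed by 43.6 to 75.1 points and the Hoxa5 boundary by -3.15 to -1.75 kb.

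The labels do not say whether replicate numbers pair the samples. Over genes, the correlations of number 1 minus number 2 between groups lay between -0.035 and 0.18. Each rests on a single pair of libraries per group, so a weak pairing could go unseen. With number as a replicate block, 0 Hox genes or regions passed, as without it, and the adjusted p of Hoxa5 (difference 59.4 points) was 0.610.

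Limits are the 2 libraries per group, unknown depth, and edges read from called intervals: the height of the mark between summits, and signal below the caller's threshold, are not analysed here.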

Other observations

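The windows held 30 noncoding genes. Of these, 15 were wholly covered in all 8 libraries and 22 touched an interval in all 8, shares not counted over all noncoding genes. The 8 others all lay in HoxB, within the stretch without intervals in WT MET 2, and included Hoxb5os, Gm53, Mir10a and Mir196a-1. Hotair, a HoxC antisense RNA described in human cells as acting on HoxD, was wholly covered in all 8 libraries. Haglr, the antisense RNA beside Hoxd1, was at 100% in 7 libraries and 94.5% in RH VEH 1. Hoxb3os, a noncoding RNA at chr11:96343034-96353394, was covered over 90.3% and 78.8% in RH MET, 61.7% and 92.3% in RH VEH, 100% in both WT MET libraries, and 100% and 94.5% in WT VEH. All 4 RH values of Hoxb3os were below all 4 WT values, as for 2.12% of 5321 noncoding genes whose cover varied. The gene was singled out after its values were seen, and it crosses the 0.8 kb stretch described above.

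Smaller summits recurred at fixed genes. In 6 libraries, all but RH MET 2 and WT MET 2, a summit lay in Hoxa2 between 52164273 and 52164481, with heights of 29 to 64. In all 8 libraries a summit lay in Hoxa4, which the Hoxa3 span also covers, with heights of 36 and 31 in RH MET, 14 and 30 in RH VEH, 26 and 39 in WT MET, and 25 and 31 in WT VEH.

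Genes that mark other cell types carried the mark in part. Of 4 T cell genes 3 or 4 touched an interval per library, of 4 B cell genes 2 did, of 4 stromal genes all 4 did, of 4 endothelial genes 1 or 2 did, and of 4 mast cell genes 1 did.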
